A study of Mus musculus with 2 samples.

Results

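The mitochondrial respiratory chain passes electrons from NADH and succinate to oxygen and uses the resulting proton gradient to make ATP. Complex I oxidises NADH, complex II oxidises succinate, complex III hands electrons from ubiquinol to cytochrome c, complex IV reduces oxygen, and complex V is the ATP synthase. Complex II is built from nuclear genes alone, and the other complexes combine nuclear-encoded subunits with subunits transcribed from mitochondrial DNA. Osteoclasts, the bone-resorbing cells that form by fusion of macrophage precursors, are known for their many mitochondria, and neutrophils for relying mainly on glycolysis.

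The genes were chosen by symbol in mouse single-cell RNA-seq data. All symbols were taken that start with Ndufa, Ndufb, Ndufc, Ndufs, Ndufv, Sdha to Sdhd, Uqcr, Cox4 to Cox8, Atp5, mt-Nd, mt-Co, mt-Cyt or mt-Atp, without the Ndufaf assembly factors and without Ndufa4l2. The rule gave 101 features, under 100 symbols, of the 31055 features counted. Of these, 88 were nuclear and 13 mitochondrial. The nuclear genes comprised 36 for complex I, 4 for complex II, 8 for complex III, 18 for complex IV (Ndufa4 included, which is a complex IV subunit) and 16 for complex V. The 6 other nuclear genes were the complex II assembly factors Sdhaf1 to Sdhaf4, the supercomplex factor Cox7a2l and Atp5s, a coupling factor of the ATP synthase. They were kept apart from the complexes. In at least 1 of the cell classes, 80 of the 88 nuclear genes and all 13 mitochondrial genes reached 10 CPM (unique molecular identifier counts scaled to the total of a class). The 8 below that level were Cox4i2, Cox6a2, Cox6b2, Cox7b2, Cox8b, Cox8c, Atp5s and a second identifier of Atp5o, and 2 of them, Cox8b and the second Atp5o, had no count in any class.

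Cells came from the periosteum, the layer that covers bone and supplies cells for fracture repair, of Prx1Cre;mTmG mice. In these mice Cre is driven by the Prx1 (Prrx1) promoter, which is active in limb mesenchyme, and switches a membrane reporter from tdTomato to EGFP. One library was made at day 3 after tibial fracture and 1 from uninjured periosteum, both from primary explant cultures with all live cells used. The labels describe growth at 33 °C in medium with 20% serum and 10 ng/mL basic FGF up to 80% confluence, while the design text states that the cells were not expanded. How many mice were pooled for a library is not stated in the labels.

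After filtering, 12790 cells of the day 3 library and 4274 of the uninjured library were kept, and 3 cell barcodes were present in both libraries before filtering. Cells were clustered without the respiratory chain genes or any other mitochondrial transcript, and 4 classes were cut from marker genes. The EGFP lineage (mesenchymal-like clusters) held 3168 cells at day 3 and 1966 in uninjured periosteum, the osteoclasts 591 and 77, the neutrophils 464 and 7, and the C1q macrophages 6369 and 1187. The 7 uninjured neutrophils were too few to be described. EGFP stood at 1847 CPM at day 3 and 2687 CPM uninjured in the lineage cells, and between 30.3 and 107.7 CPM in the described immune classes. tdTomato did not exceed 3.65 CPM in any class, the immune classes included. The osteoclast marker list summed to 11590 CPM at day 3 and 7412 CPM uninjured in the osteoclasts, against 450 and 67.7 CPM in the macrophages. Xist, an RNA of the inactive X chromosome, was at 316 to 456 CPM in the day 3 classes and at 0.0803 CPM or less in the uninjured ones. The Y chromosome genes Ddx3y, Eif2s3y, Kdm5d and Uty together were at 9.32 to 44.9 CPM in the day 3 classes. In the described uninjured classes they were at 88.7 to 97.9 CPM, so the libraries differed in transcripts of both sex chromosomes. Ndufa1 and Ndufb11 are among the members on the X chromosome. Median counts per cell also differed, at 4600 in day 3 and 10150 in uninjured macrophages, and at 33040 in day 3 and 23760 in uninjured lineage cells. They were 16110 in day 3 and 18260 in uninjured osteoclasts, and 2904 in day 3 neutrophils.

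There was 1 library per condition, so no difference below has a replicate check and none was tested. Values are CPM, that is counts of unique molecular identifiers added up within a class and scaled to all counts of that class, and ratios carry exact 95% binomial intervals that cover counting error only. A gene was counted as higher or lower where it reached 10 CPM in the group with the larger level and the ratio was 1.5 or more in that direction. Fewer cells with a transcript and less transcript per cell cannot be told apart in such sums. Injury, animals, sequencing depth and library cannot be told apart between day 3 and uninjured. Comparisons of classes within a library are therefore the ones in which both groups share a preparation, although their counts per cell differ. Among day 3 macrophage clusters of at least 50 cells, the nuclear genes summed to 15690 CPM in the shallowest, with a median of 1805 counts. They summed to 24450 CPM in the deepest, with a median of 9873. That cluster was led by cell cycle genes such as Cenpf, Mki67 and Top2a, so depth and cell division cannot be told apart in it. The part of depth in the class comparisons was not tested.

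Osteoclasts held the largest respiratory chain levels of the 4 classes in both libraries. The nuclear genes together made up 4.49% of all counts of osteoclasts at day 3 and 5.70% uninjured. In lineage cells they made up 2.30% at day 3 and 2.84% uninjured, in day 3 neutrophils 1.44%, and in C1q macrophages 2.03% at day 3 and 3.06% uninjured. The 13 mitochondrial genes made up 6.30% at day 3 and 4.70% uninjured in osteoclasts, 4.44% and 2.55% in lineage cells, 2.08% in day 3 neutrophils, and 4.31% at day 3 and 2.93% uninjured in macrophages. Within a library the osteoclasts were thus first in both sets and the day 3 neutrophils last, and lineage cells and macrophages were close to each other. Over single cells at day 3, the nuclear share had a median of 4.04% with quartiles of 3.37% and 4.97% in osteoclasts, and a median of 1.75% with quartiles of 1.47% and 2.11% in macrophages. The ranges between the quartiles did not overlap between these classes, although cells of a library are not replicates.

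**Figure D1:**
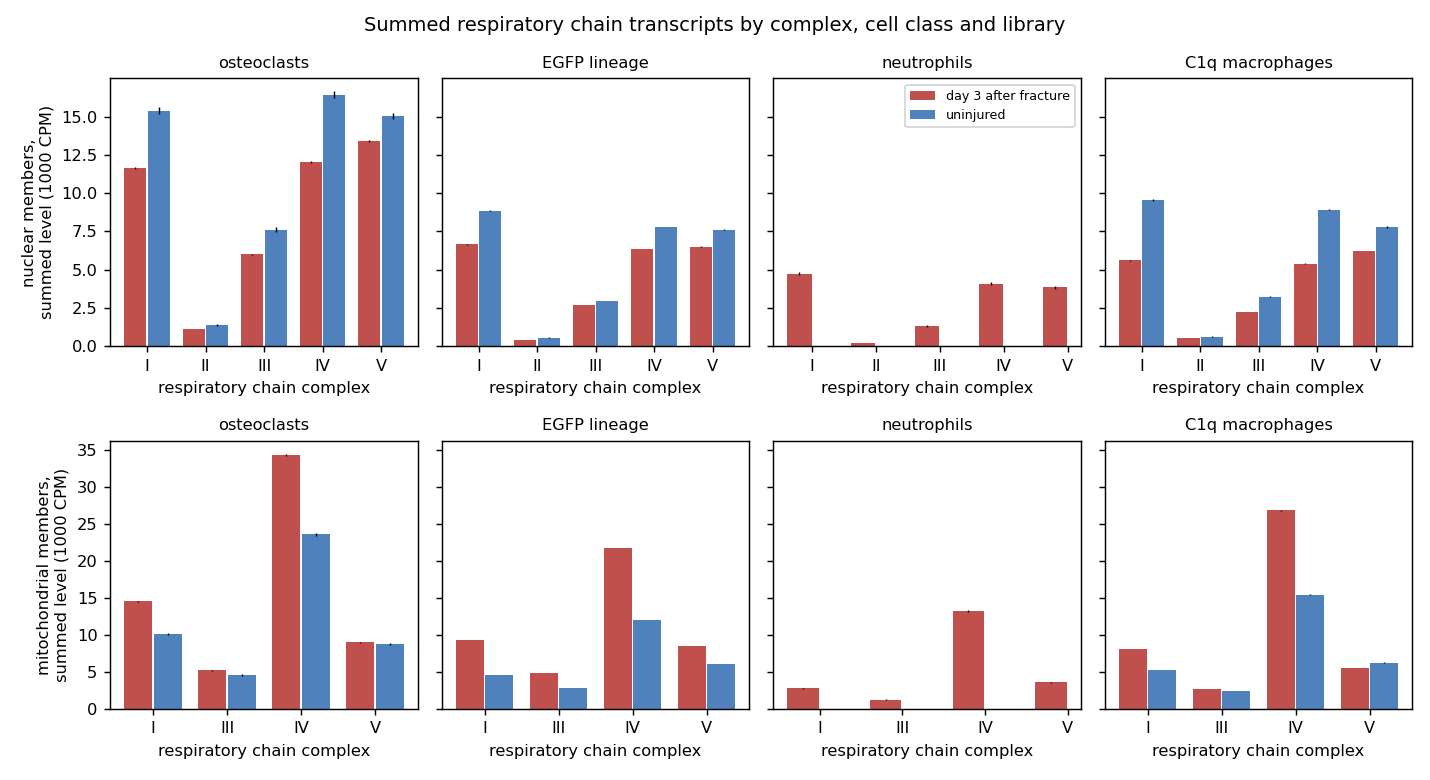
Summed CPM of the nuclear members (top) and the mitochondrially encoded members (bottom) of each complex, in units of 1000, in 4 cell classes at day 3 after fracture (red) and in uninjured periosteum (blue); error bars are exact 95% Poisson intervals, which cover counting error only. Osteoclasts have the tallest bars for each complex, and within a class the nuclear bars are shorter at day 3, while most mitochondrial bars are taller.

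In day 3 osteoclasts, 75 of the 80 nuclear genes at 10 CPM or more were at least 1.5-fold higher than in day 3 macrophages and none was lower. Over all features tested in that comparison, 14.9% were higher and 33.9% were lower. In uninjured osteoclasts, 60 of 80 were higher and none lower, where 17.8% of all features were higher and 27.9% lower. The median log2 ratio of the nuclear genes was 1.14 at day 3 and 0.89 uninjured, while that of all features was -0.28 and -0.15. With TMM scaling (trimmed mean of M values), 77 were higher and none lower at day 3, beside 20.1% and 25.4% of all features. The 60 genes higher in the uninjured library were all among the 75 of day 3. The 5 tested genes that were not 1.5-fold higher at day 3 were Ndufa2, Ndufv3, Sdhaf2, Sdhaf3 and Atp5e, with ratios of 1.24 to 1.46.

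Each complex took part. The ratio of summed CPM, osteoclasts over macrophages, was 2.07 (95% interval 2.06 to 2.09) at day 3 and 1.61 (1.59 to 1.64) uninjured for complex I. For complex II it was 2.16 (2.11 to 2.21) and 2.26 (2.15 to 2.38), for complex III 2.69 (2.66 to 2.72) and 2.35 (2.30 to 2.40), for complex IV 2.23 (2.22 to 2.25) and 1.84 (1.82 to 1.87), and for complex V 2.15 (2.14 to 2.17) and 1.93 (1.90 to 1.96). Complex III had the largest ratio in both libraries, and its intervals did not overlap those of complexes I, IV and V in either. Complex III and complex II of the uninjured library did overlap. All 8 nuclear genes of complex III, all 4 of complex II and all 12 tested genes of complex IV were higher in both libraries, as were 20 of 36 genes of complex I in the uninjured library and 34 of 36 at day 3.

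**Figure D2:**
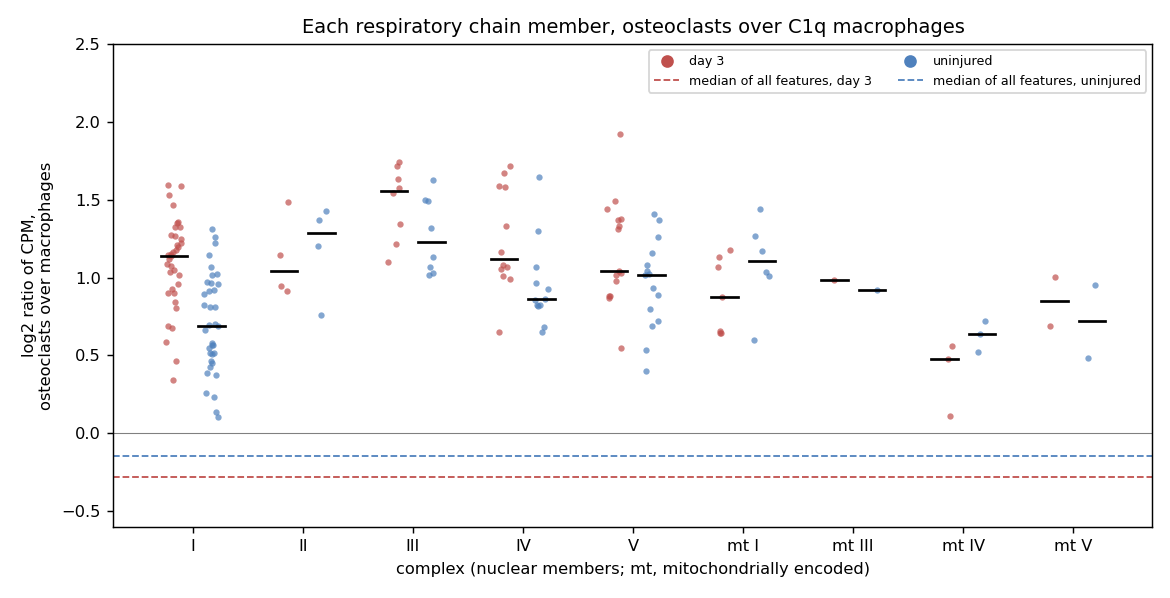
Log2 ratio of CPM of each tested member, osteoclasts over C1q macrophages, by complex, at day 3 (red) and uninjured (blue); black bars are medians of the members and dashed lines the medians of all features. All members of the 5 complexes lie above 0, and the medians of all features lie at -0.28 and -0.15.

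Of single genes, Atp5g1, which encodes the c subunit of the proton-driven ring of ATP synthase, had the largest ratio at day 3. It stood at 966 CPM in osteoclasts and 255 CPM in macrophages at day 3, a ratio of 3.79 (3.69 to 3.90), and at 2033 CPM and 765 CPM in the uninjured library, a ratio of 2.66 (2.55 to 2.77). Lineage cells held 473 CPM of Atp5g1 at day 3 and 767 CPM uninjured, and day 3 neutrophils 134 CPM. Its paralog Atp5g3, which encodes the same mature protein, stood at 974 CPM in osteoclasts and 476 CPM in macrophages at day 3, and at 817 and 316 CPM uninjured. The third paralog, Atp5g2, had smaller ratios, with 794 CPM in osteoclasts and 434 CPM in macrophages at day 3. In complex III, Uqcr10, a small accessory subunit, stood at 1217 CPM in osteoclasts and 364 CPM in macrophages at day 3, and at 1660 and 591 CPM uninjured. Uqcrfs1, the Rieske iron-sulfur protein, had 354 CPM against 114 CPM at day 3 and 564 CPM against 199.7 CPM uninjured. Both were above macrophages, lineage cells and neutrophils in each library where these were measured. In complex I, the iron-sulfur subunit Ndufs7 was at 379 CPM in osteoclasts and 125 CPM in macrophages at day 3, and the flavin-binding subunit Ndufv1 at 129 and 42.9 CPM. In complex II, Sdhb, which carries the iron-sulfur clusters, was at 313 CPM in osteoclasts and 112 CPM in macrophages at day 3, and at 649 and 282 CPM uninjured. Sdha, the flavoprotein that oxidises succinate, was at 328 and 170 CPM at day 3, and at 225 and 83.5 CPM uninjured.

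The mitochondrial genes were also higher in osteoclasts than in macrophages, by less than the nuclear ones at day 3. Their median log2 ratio at day 3 was 0.69, against 1.14 for the nuclear genes. Without the removal of cells above 10% mitochondrial counts these medians were closer, at 1.19 and 1.33. In that setting 12 mitochondrial genes were higher, beside 16.0% of all features. At day 3, 10 of 13 and, in the uninjured library, 10 of 12 tested genes were at least 1.5-fold higher, and none was lower. Over all features, 14.9% were higher and 33.9% lower at day 3, and 17.8% and 27.9% in the uninjured library. The ratio of their summed CPM was 1.46 (1.46 to 1.47) at day 3 and 1.60 (1.59 to 1.62) uninjured. The smallest ratio at day 3 was that of mt-Co1, the catalytic subunit of complex IV, with 12570 CPM in osteoclasts and 11620 CPM in macrophages, a ratio of 1.08 (1.08 to 1.09). In the uninjured library mt-Co1 stood at 8348 CPM in osteoclasts and 5816 CPM in macrophages, a ratio of 1.44 (1.41 to 1.46). mt-Cytb, the only complex III subunit in mitochondrial DNA, had ratios of 1.98 (1.96 to 2.00) and 1.89 (1.84 to 1.94).

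Other mitochondrial genes were higher in osteoclasts as well. The lists below stand beside 14.9% of all features higher and 33.9% lower at day 3, and 17.8% and 27.9% uninjured. Among features with a longest annotated transcript of up to 1500 bases, 33.98% were higher and 15.46% lower at day 3. In the uninjured library these shares of short features were 20.96% and 22.85%. Of the 17 genes of pyruvate dehydrogenase and the citric acid cycle, 14 were higher and none lower in each library, with median log2 ratios of 1.18 at day 3 and 1.16 uninjured. Malate dehydrogenase Mdh2 stood at 584 CPM in osteoclasts and 166 CPM in macrophages at day 3. Of 77 tested mitochondrial ribosomal protein genes, 50 were higher and none lower at day 3, and in the uninjured library 23 of 76 were higher and 1 lower. Of the assembly factors, 25 of 37 tested were higher at day 3 and 14 of 33 uninjured, and none was lower. Cyc1, the cytochrome c1 subunit of complex III that the naming rule leaves out, stood at 416 CPM in osteoclasts and 99.6 CPM in macrophages at day 3, and at 638 and 173 CPM uninjured. The electron carrier cytochrome c, Cycs, was at 413 and 133 CPM at day 3, and at 718 and 270 CPM uninjured. Among 18 known regulators of mitochondrial biogenesis, 5 of 14 tested were higher and 3 lower at day 3. Ppargc1b, a coactivator known in mouse osteoclasts for driving mitochondrial biogenesis, stood at 124 CPM in osteoclasts and 9.18 CPM in macrophages at day 3, and at 79.3 and 3.53 CPM uninjured. Its relative Ppargc1a had no count in osteoclasts, which allows up to 0.313 CPM at day 3 and 2.18 CPM uninjured (3 counts of the total), and was at 0.191 CPM in day 3 macrophages. Nrf1, a transcription factor of nuclear respiratory genes, was lower in osteoclasts, at 16.4 CPM against 31.3 CPM at day 3 and 10.2 CPM against 22.4 CPM uninjured. Not all mitochondrial genes followed, since Prdx5, a peroxidase, stood at 124.5 CPM in osteoclasts and 427 CPM in macrophages at day 3, and at 206 and 628 CPM uninjured.

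The osteoclast cells also carried macrophage transcripts. The macrophage marker list summed to 2149 CPM at day 3 and 2923 CPM uninjured in osteoclasts, with all 13 markers present, against 17600 and 27190 CPM in the macrophages. The part of these transcripts in the ratios was not tested. The osteoclast count of the uninjured library was small and depended on the clustering. When the libraries were clustered apart, 238 uninjured and 442 day 3 cells fell in the class, and 37 nuclear genes were higher in the uninjured library and 76 at day 3, with none lower. The shares of all features higher and lower were then 14.8% and 19.6% in the uninjured library, and 15.8% and 35.4% at day 3.

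Promoter sequences are shown for members on which the results turn, to let the reader see the words that regulators of respiratory genes are known to bind. RefSeq windows on the build GRCm38.p6, 250 bases before to 50 bases after a start, were found for 71 of the 87 nuclear symbols. The word of the factor NRF1, GCATGCGC or its reverse GCGCATGC, occurred within the 250 upstream bases of 8 of the 71 members (11.3%) and of 2.56% of all 27025 gene symbols in the table. The core word of ETS factors such as GABP, CGGAAG or its reverse CTTCCG, occurred in 22 of the 71 (31.0%) and in 15.3% of all. The GC box GGGCGG or CCGCCC occurred in 28 of the 71 (39.4%) and in 35.4% of all, and the word AAGGTCA or TGACCTT of estrogen-related receptors in 5 (7.04%) and in 4.70%. The longer ETS word CCGGAAGT or ACTTCCGG occurred in 3 (4.23%) and in 3.23% of all, the word AAGATGGC or GCCATCTT of YY1 in 1 (1.41%) and in 1.83%, and the word TGACGTCA of CRE-binding factors in 4 (5.63%) and in 1.77%. A word is a match of letters and no evidence of binding, and the words can overlap. Cox6a1, shown first, is 1 of the genes that were lower at day 3 in every class compared below, and Atp5g1, shown next, had the largest osteoclast ratio at day 3. Only bases before the annotated gene are printed, in the sense of the gene, and capitals mark NRF1 words and GC boxes. Cox6a1 is from chr5:115348982-115349208 on the minus strand and Atp5g1 from chr11:96075671-96075881 on the minus strand.
Cox6a1: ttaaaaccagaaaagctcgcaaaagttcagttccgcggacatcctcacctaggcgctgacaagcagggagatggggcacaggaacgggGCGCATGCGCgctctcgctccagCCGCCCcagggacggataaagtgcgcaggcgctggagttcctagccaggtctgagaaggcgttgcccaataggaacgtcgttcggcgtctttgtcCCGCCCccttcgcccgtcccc
Atp5g1: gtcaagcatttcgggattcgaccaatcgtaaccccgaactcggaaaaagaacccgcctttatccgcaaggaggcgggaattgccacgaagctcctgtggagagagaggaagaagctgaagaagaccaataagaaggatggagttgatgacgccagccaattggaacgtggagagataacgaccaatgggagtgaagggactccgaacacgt

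The NRF1 words of 3 other members outside their annotated genes are set beside each other, with the word in capitals. They come from chr9:44920955-44920992 on the minus strand, chr17:56717682-56717731 on the plus strand and chr15:82354347-82354394 on the minus strand. The remaining holders of the word were Atp5g2, Atp5k, Ndufa8 and Sdhb.
Atp5l: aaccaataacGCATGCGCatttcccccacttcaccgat
Ndufa11: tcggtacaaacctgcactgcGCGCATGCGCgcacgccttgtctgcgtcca
Ndufa6: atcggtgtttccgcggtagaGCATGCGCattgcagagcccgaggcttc
The holders did not share a ratio. Ndufa6 was at 449 CPM in osteoclasts and 175 CPM in macrophages at day 3, and Ndufa11 at 302 and 149 CPM. Atp5g1, whose printed bases hold none of these words, had the largest ratio at day 3, and in the uninjured library Cox7a1, Uqcrc2 and Uqcrfs1 were among those above it.

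Between the libraries, the nuclear genes were on balance lower at day 3 than in uninjured periosteum, and the mitochondrial genes higher. In osteoclasts, 2 nuclear genes were higher and 16 lower of 80 tested, while 42.2% of all features were higher and 7.61% lower. In lineage cells, 2 were higher and 16 lower of 79, with 31.9% of all features higher and 16.0% lower. In macrophages, 4 were higher and 45 lower of 80, with 53.2% of all features higher and 10.5% lower. The median log2 ratio of the nuclear genes was -0.34 in osteoclasts, -0.33 in lineage cells and -0.63 in macrophages, and that of all features was 0.46, 0.18 and 0.65. TMM scaling moved the medians of all features to 0.12 in osteoclasts, 0.11 in lineage cells and 0.15 in macrophages. With it, 1 was higher and 47 lower in osteoclasts, 2 and 21 in lineage cells, and 1 and 68 in macrophages, beside 23.5% higher and 17.2% lower of all features in osteoclasts, 29.5% and 18.4% in lineage cells, and 28.8% and 22.5% in macrophages. With the libraries clustered apart, the osteoclast values were 9 higher and 4 lower, with a median log2 ratio of 0.07, beside 40.0% higher, 14.3% lower and a median of 0.37 for all features. The sign of the median thus depended on which cells were called osteoclasts, and it lay below that of all features in both clusterings. Lineage cells lay in clusters 3, 4, 10, 19 and 23 at day 3 and in 6, 8 and 19 uninjured, and macrophages in 0, 1, 5, 7, 11 and 14 at day 3 and mainly in 2 uninjured. Cells with at least 3 counts of cell cycle genes made up 30.15% of day 3 and 59.98% of uninjured macrophages. A fixed cut is reached more easily at more counts per cell, and these were fewer in day 3 macrophages. The part of depth in these shares was not tested. The summed level of the cell cycle genes went the other way from the shares, at 1789 CPM in day 3 and 1266 CPM in uninjured macrophages. Without the cells above the cut, which also tend to be the deeper ones, 3 nuclear genes were higher and 57 lower, beside 53.8% and 12.8% of all features.

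Across all features, the log2 ratio of day 3 over uninjured correlated with the length of the longest annotated transcript, with a Spearman rho of 0.48 over 7694 features in osteoclasts, 0.48 over 8103 in lineage cells and 0.57 over 8282 in macrophages. All points share the same 2 libraries, and genes are not independent replicates. Among the nuclear members alone rho was 0.23 over 80 in osteoclasts, -0.06 over 79 in lineage cells and 0.15 over 80 in macrophages. The nuclear members tested are short, with a median of 1135 bases in osteoclasts and macrophages against 3379 and 3440 bases for all features. Features with a longest transcript of up to 1500 bases, a limit chosen after the values were seen, had median log2 ratios of -0.28 in osteoclasts, -0.38 in lineage cells and -0.53 in macrophages, close to those of the nuclear members. Of the nuclear members 20.0% were lower in osteoclasts, 20.2% in lineage cells and 56.2% in macrophages, against 27.3%, 36.4% and 47.0% of the short features. In the comparison of osteoclasts over macrophages the short features had medians of 0.24 at day 3 and -0.02 uninjured, against 1.14 and 0.89 for the nuclear members. The part of length in the differences between the libraries was not tested further.

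**Figure D3:**
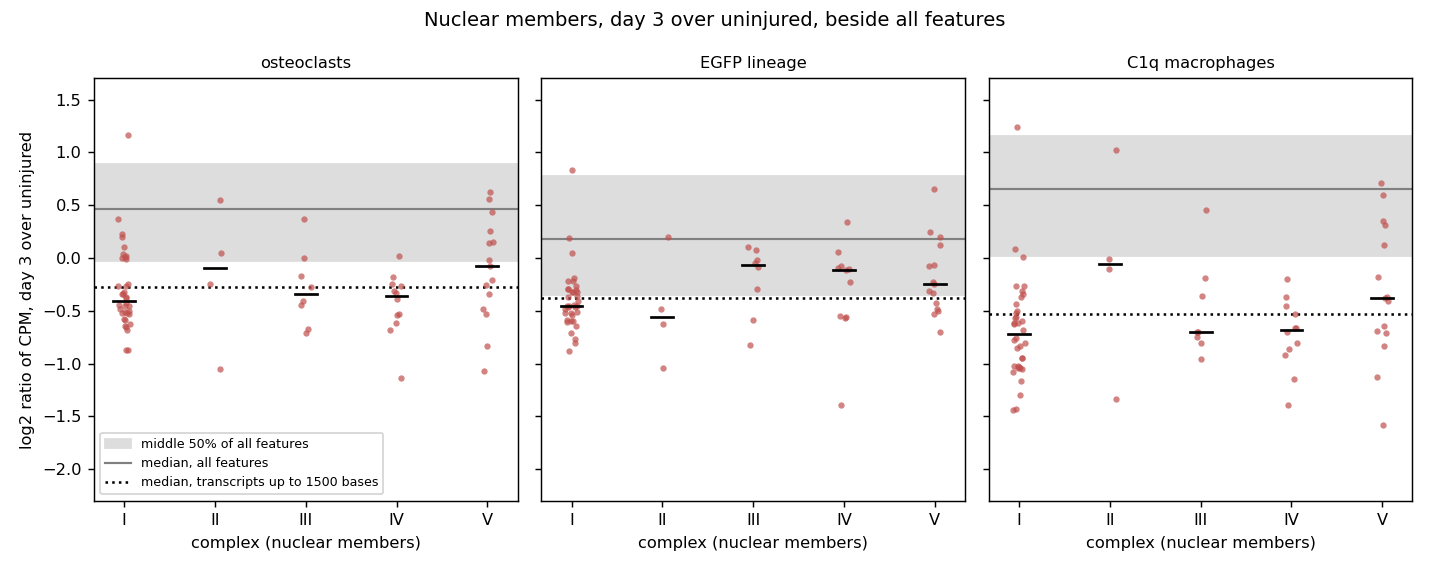
Log2 ratio of CPM of each tested nuclear member, day 3 over uninjured, by complex in 3 classes; black bars are medians of the members, the grey band holds the middle 50% of all features with their median as a grey line, and the dotted line is the median of features with transcripts up to 1500 bases. Most members lie below the median of all features and around the dotted line.

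A set of 9 nuclear genes was at least 1.5-fold lower at day 3 in all 3 classes: Ndufa13, Ndufb2, Ndufb8 and Ndufv2 of complex I, Sdhb of complex II, Uqcrfs1 of complex III, Cox6a1 of complex IV, Atp5g1 of complex V and Cox7a2l. That is 9 of 79 nuclear genes tested in each class, where 3.95% of all features were lower in all 3. The share of short features lower in all 3 classes was not computed. With the libraries clustered apart, Ndufb8, Sdhb, Cox6a1 and Atp5g1 were the 4 lower in all 3 classes, beside 4.47% of all features. Without the mitochondrial filter 6 were, namely these 4 with Ndufa13 and Cox7a2l, beside 4.58%, and the same 6 with the mitochondrial genes out of the totals, beside 3.51%. With TMM scaling 18 were, beside 8.5%. Cox6a1, the widespread isoform of a regulatory subunit of complex IV, stood at 635 CPM in day 3 and 1398 CPM in uninjured osteoclasts. It stood at 276 and 724 CPM in lineage cells, and at 404 and 892 CPM in macrophages, with ratios of 0.454 (0.431 to 0.478), 0.382 (0.376 to 0.387) and 0.453 (0.442 to 0.464). The day 3 levels were the lower ones in each class. Atp5g1 had the lowest ratio of all nuclear genes in macrophages, 0.333 (0.324 to 0.343). Sdhb had ratios of 0.482 in osteoclasts, 0.486 in lineage cells and 0.396 in macrophages. Ndufb8, an accessory subunit in the membrane arm of complex I, had 548 CPM in day 3 and 1001 CPM in uninjured osteoclasts, 235 and 399 CPM in lineage cells, and 230 and 619 CPM in macrophages.

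Few nuclear genes went the other way. Ndufs1, the largest of the core iron-sulfur subunits of complex I, was the only 1 of 79 higher in all 3 classes, where 22.8% of all features were. It stood at 117.5 CPM in day 3 and 52.4 CPM in uninjured osteoclasts, 44.0 and 24.7 CPM in lineage cells, and 65.5 and 27.8 CPM in macrophages. Its ratios were 2.24 (1.77 to 2.89), 1.78 (1.67 to 1.89) and 2.36 (2.10 to 2.65). Sdha, in contrast to Sdhb of the same complex, had ratios of 1.46 in osteoclasts, 1.14 in lineage cells and 2.04 in macrophages. Atp5k, the e subunit of ATP synthase, was higher in osteoclasts (1.54) and lineage cells (1.57) and had a ratio of 1.24 in macrophages. In macrophages, Atp5a1, the alpha subunit of the catalytic part of ATP synthase, and Atp5g3 had ratios of 1.63 and 1.51. Under division by the median of all features the ratio of Atp5g3 in macrophages fell just below 1, at -0.06 on the log2 scale. Genes of a complex therefore differed from each other by more than their counting error, and complex II held both Sdhb, among the lowest ratios, and Sdha, among the highest. The longest annotated transcripts of these genes also differed, at 2661 bases for Ndufs1, 2900 for Sdha, 2674 for Atp5a1 and 1232 for Sdhb. By this measure Atp5k with 563 bases, Atp5g3 with 862 and the low Atp5g1 with 4715 went the other way. The longest annotated transcript need not be the form that was counted. The part of length in these ratios was not tested.

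**Figure D4:**
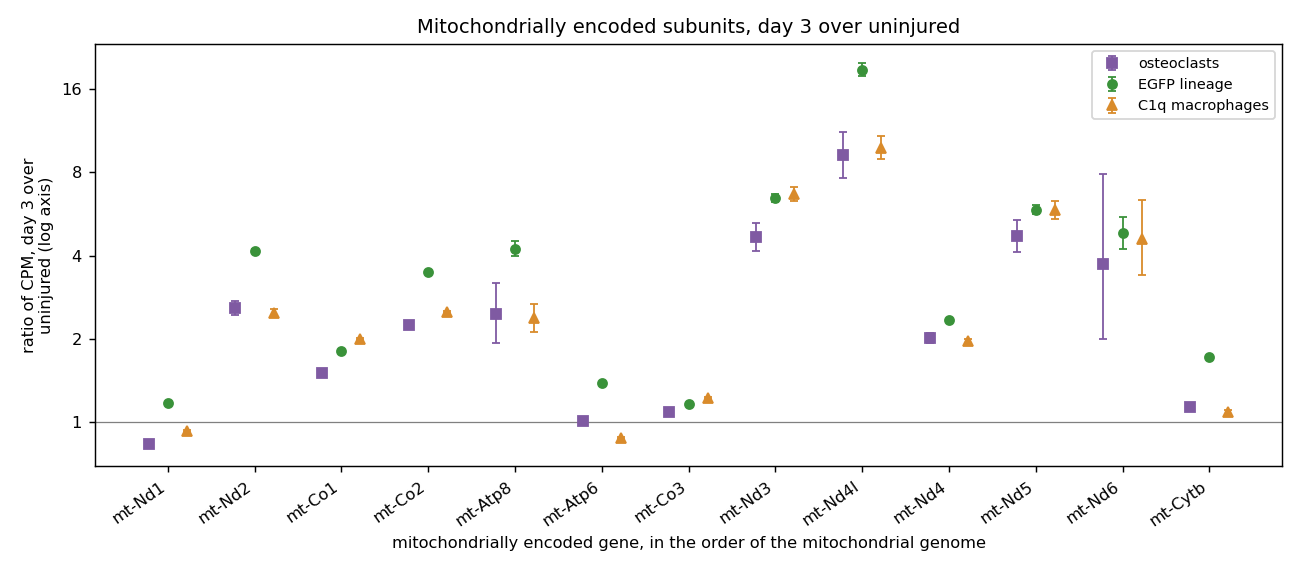
Ratio of CPM, day 3 over uninjured, of the 13 mitochondrially encoded genes on a log axis, in the order of the mitochondrial genome, in osteoclasts, EGFP lineage cells and C1q macrophages; error bars are exact 95% binomial intervals, which cover counting error only. The ratios run from 0.833 for mt-Nd1 in osteoclasts to 18.7 for mt-Nd4l in lineage cells, and the 3 classes follow nearly the same profile.

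Of the 13 mitochondrial genes, 9 were at least 1.5-fold higher at day 3 in osteoclasts, 10 in lineage cells and 9 in macrophages, and none was lower. Of all features, 42.2% were higher in osteoclasts, 31.9% in lineage cells and 53.2% in macrophages, so the count in macrophages was the nearest to its background. The same 9 of 13 were higher in all 3 classes, where 22.8% of all features tested in each were. They were mt-Nd2, mt-Nd3, mt-Nd4, mt-Nd4l, mt-Nd5, mt-Nd6, mt-Co1, mt-Co2 and mt-Atp8, with mt-Cytb in lineage cells as the tenth. The size differed between genes much more than between classes. mt-Nd4l, a small membrane subunit of complex I, stood at 748 CPM in day 3 and 81.4 CPM in uninjured osteoclasts, 485 and 25.9 CPM in lineage cells, and 331 and 33.8 CPM in macrophages. Its ratios were 9.19 (7.62 to 11.2), 18.7 (17.7 to 19.8) and 9.80 (8.89 to 10.8). mt-Nd3 had ratios of 4.66, 6.44 and 6.64, and mt-Nd5 ratios of 4.71, 5.86 and 5.84, in the same order of classes. In contrast, mt-Nd1 had ratios of 0.833 (0.815 to 0.852) in osteoclasts, 1.17 (1.16 to 1.18) in lineage cells and 0.931 (0.920 to 0.942) in macrophages. mt-Co3 had ratios of 1.09, 1.17 and 1.22, and mt-Atp6 ratios of 1.01, 1.39 and 0.882. With TMM scaling, 1 of the 13 genes counted as lower in osteoclasts and 1 in macrophages, and 8 and 7 as higher. These genes lie on the same heavy-strand transcript, apart from mt-Nd6 on the opposite strand, and neighbours differed: the ratios of mt-Co3 lay between 1.09 and 1.22 beside those of mt-Nd3 between 4.66 and 6.64. Some annotated genes overlap, mt-Atp8 with mt-Atp6 by 43 bases, mt-Atp6 with mt-Co3 by 1, mt-Nd4l with mt-Nd4 by 7 and mt-Nd5 with mt-Nd6 by 14 on opposite strands. Counts assigned in these stretches are uncertain. The ratios of mt-Nd4l and mt-Atp8 were therefore not shown to be those of transcripts separate from mt-Nd4 and mt-Atp6. Counts of nuclear genes with near-identical processed copies elsewhere in the genome can be split in the same way.

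The ratio of mitochondrial to nuclear respiratory transcripts was higher at day 3 in every class compared. It was 1.405 in day 3 and 0.824 in uninjured osteoclasts, 1.93 and 0.898 in lineage cells, and 2.12 and 0.957 in macrophages, and stood at 1.44 in day 3 neutrophils. Within the 4 classes the clusters of the libraries did not overlap in this ratio. Clusters of these classes at day 3 ran from 1.02 to 2.80 and uninjured ones from 0.502 to 0.944, while an uninjured cluster outside the classes reached 1.05. The only lineage cluster with at least 50 cells in both libraries was led by the contractile genes Tagln, Acta2, Tpm2 and Myl9 and held 208 day 3 and 84 uninjured cells. In it the nuclear genes stood at 33030 CPM at day 3 and 34450 CPM uninjured, and the mitochondrial ones at 33770 and 17300 CPM. Within this cluster 2 nuclear genes were higher and 6 lower, with a median log2 ratio of -0.07 beside 0.04 for all features, and 11 of the mitochondrial genes were higher. Cells above 10% mitochondrial counts had been removed, which caps these values, and without that filter the counts of mitochondrial genes higher at day 3 were 10, 10 and 9 in osteoclasts, lineage cells and macrophages.

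**Figure D5:**
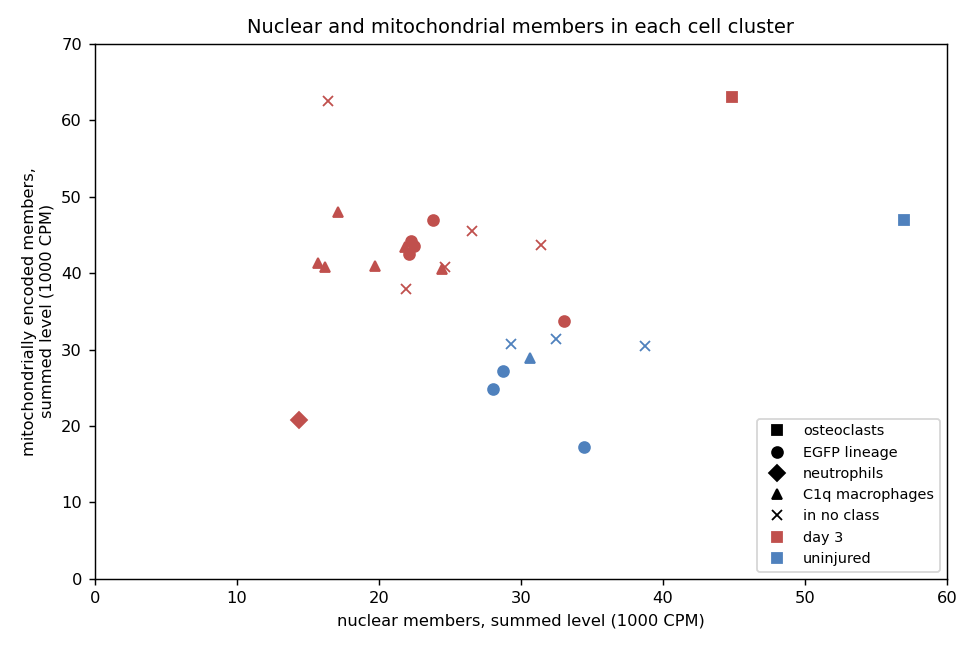
Summed CPM of the nuclear members (horizontal) and of the mitochondrially encoded members (vertical), in units of 1000, in each cell cluster of each library; symbols give the class and colours the library. The osteoclast cluster stands to the right in both libraries, the day 3 neutrophils stand lowest among the day 3 clusters, and the uninjured clusters of the 4 classes have more nuclear than mitochondrial transcripts, while those of day 3 have more mitochondrial ones.

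Other mitochondrial lists are set beside the shares of all features given above for day 3 over uninjured. Of the mitochondrial ribosomal protein genes, 3 were higher and 12 lower of 77 in osteoclasts, 2 and 17 of 77 in lineage cells, and 3 and 40 of 76 in macrophages, with fewer higher than among all features, as for the nuclear respiratory chain genes. Of the 17 genes of pyruvate dehydrogenase and the citric acid cycle, 4 were higher and none lower in osteoclasts, 1 and 1 in lineage cells, and 8 and 1 in macrophages, where 42.2%, 31.9% and 53.2% of all features were higher. These counts of higher genes lay near or below the shares of all features. Ogdh, a subunit of the oxoglutarate dehydrogenase complex, stood at 171.5 CPM in day 3 and 96.0 CPM in uninjured osteoclasts, 62.8 and 39.5 CPM in lineage cells, and 143 and 62.4 CPM in macrophages. Of the biogenesis regulators, 8 were higher and 1 lower of 14 in osteoclasts, 4 and 0 of 12 in lineage cells, and 7 and 1 of 12 in macrophages, in lineage cells and macrophages about the share of all features. Lrpprc and Slirp are partners that stabilise mitochondrial mRNAs. Lrpprc was higher in all 3 classes, as 22.8% of all features were. Slirp was lower in osteoclasts and macrophages, where 7.61% and 10.5% of all features were lower. It missed the 1.5-fold limit in lineage cells, with a ratio of 0.674. The part of transcript length in the ratios of these 2 genes was not tested. Lrpprc stood at 79.3 CPM in day 3 and 34.2 CPM in uninjured osteoclasts, 27.1 and 9.12 CPM in lineage cells, and 50.3 and 16.3 CPM in macrophages. Slirp stood at 112 and 213 CPM in osteoclasts, 125 and 185 CPM in lineage cells, and 62.6 and 220.1 CPM in macrophages.

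Lineage cells and macrophages lay closer together in the nuclear genes than osteoclasts and macrophages. At day 3, 14 nuclear genes were higher in lineage cells and 4 lower of 79 tested, where 22.8% of all features were higher and 40.0% lower. In the uninjured library, 3 were higher and 4 lower of 80, where 27.3% and 25.2% of all features were. The median log2 ratio was 0.22 at day 3 and -0.06 uninjured, beside -0.29 and 0.08 for all features. Features with a longest transcript of up to 1500 bases had medians of 0.33 and 0.18, above those of the nuclear genes in both libraries. Of these short features 38.79% were higher and 20.98% lower at day 3, and 27.38% and 20.04% uninjured. The day 3 counts were 27 and 1 with TMM scaling, beside 26.9% and 35.1% of all features. With the lineage cluster found in both libraries alone they were 43 and 2, beside 14.6% and 67.9%. Ndufs4, a complex I subunit, was the only gene higher in both libraries, at 112 CPM in lineage cells and 64.3 CPM in macrophages at day 3, and 153 and 99.3 CPM uninjured. Ndufv3 and Atp5e were lower in both, Atp5e with 574 CPM in lineage cells and 880 CPM in macrophages at day 3, and 526 and 808 CPM uninjured. Both genes reached ratios just above 1 at day 3 when the cluster led by Tagln and Acta2 alone stood for the lineage. Complex II was the lowest complex in day 3 lineage cells, with a ratio of sums of 0.714 (0.702 to 0.727) and Sdha at 92.5 CPM against 170 CPM in macrophages. Ndufa4 had the highest ratio at day 3, with 620 CPM in lineage cells and 301 CPM in macrophages, and 596 and 435 CPM uninjured. Ndufa4l2, its hypoxia-linked paralog outside the naming rule, was at 1.51 CPM in day 3 and 99.0 CPM in uninjured lineage cells, and at 0.0545 and 5.54 CPM in macrophages. Among mitochondrial genes at day 3, mt-Cytb was higher in lineage cells with a ratio of 1.85 (1.84 to 1.86), mt-Nd2 with 1.62 and mt-Atp6 with 1.54, and mt-Co1 was lower with 0.635. In the uninjured library none of the 12 tested was 1.5-fold apart. The uncoupling protein gene Ucp2 separated the classes most clearly among the mitochondrial genes listed, at 7.28 CPM in lineage cells and 487 CPM in macrophages at day 3, and 12.6 and 386 CPM uninjured.

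Neutrophils held less of the chain than macrophages on the CPM scale. Of 79 nuclear genes tested at day 3, 3 were higher and 40 lower, but 10.2% of all features were higher and 65.3% lower. The median log2 ratio was -0.61, against -1.01 for all features and -0.64 for features with a longest transcript of up to 1500 bases. Of these short features 15.59% were higher and 52.11% lower. The nuclear genes thus lay above the bulk of all features and close to the short ones. Granule and S100 transcripts took a large part of the neutrophil counts, with the neutrophil marker list at 369900 CPM in neutrophils and 577 CPM in macrophages. The macrophage list stood at 9413 CPM in neutrophils, of which Lyz2 made up 9015, and at 17600 CPM in macrophages. When these markers were taken out of the totals, 18 of 80 nuclear genes were higher and 11 lower, beside 22.2% and 39.5% of all features, and the median log2 ratio of the nuclear genes was 0.08 beside -0.29. With TMM scaling 24 were higher and 9 lower, beside 25.7% and 35.1% of all features. The sign of the nuclear median therefore depended on the scaling, while it lay above that of all features in each. The median of the short features was not computed under the other scalings. Among the nuclear parts of the complexes, complex II had the lowest ratio of sums, 0.376 (0.337 to 0.419), and complex I the highest, 0.842 (0.824 to 0.861). Sdhc, a membrane anchor of complex II, was at 29.7 CPM in neutrophils and 132 CPM in macrophages, and Sdha at 47.2 and 170 CPM. Among complex V genes, Atp5a1 was at 127 and 566 CPM and Atp5g3 at 99.0 and 476 CPM, while Atp5h and Atp5j had ratios of 1.16 and 1.09. Ndufb11, Ndufa6 and Ndufa13, accessory subunits of complex I, were higher in neutrophils with ratios of 1.76, 1.71 and 1.53. Of the 13 mitochondrial genes, 12 were lower, with mt-Nd3 lowest at 121 CPM in neutrophils and 637 CPM in macrophages. Without the neutrophil markers in the totals 4 were lower, where 39.5% of all features were. Of the 17 citric acid cycle genes 14 were lower and none higher, with Idh2 at 14.0 CPM in neutrophils and 90.3 CPM in macrophages. Prdx5 was the 1 gene of the redox list that was higher, at 2098 CPM in neutrophils and 427 CPM in macrophages.

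The tissue isoforms of complex IV were dominated by the widespread form in each class. Of the forms known from heart and skeletal muscle, Cox8b had no count in any class and Cox6a2 reached at most 3.23 CPM, in day 3 osteoclasts. For Cox8b a count of 0 allows up to 0.0263 CPM in day 3 lineage cells, 0.313 CPM in day 3 osteoclasts and 1.75 CPM in day 3 neutrophils (3 counts of the total). Cox7a1, also known as the heart and muscle form, was the exception. It stood at 26.7 CPM in day 3 and 34.9 CPM in uninjured osteoclasts, 2.26 and 1.51 CPM in lineage cells, 0.582 CPM, which is 1 count, in day 3 neutrophils, and 8.12 and 11.2 CPM in day 3 and uninjured macrophages. Its ratio in osteoclasts over macrophages was 3.29 (2.77 to 3.90) at day 3 and 3.13 (2.20 to 4.37) uninjured. It made up 2.64% of the Cox7a1 and Cox7a2 counts in day 3 osteoclasts and 1.82% in day 3 macrophages, so Cox7a2 remained the main form. The skeletal muscle marker list was near 0 in osteoclasts, at 2.29 CPM over 9 genes with 5 at 0 at day 3 and 4.36 CPM with 7 at 0 uninjured. Cox4i2, the form known from lung and low oxygen, stood at 1.02 CPM in day 3 and 5.63 CPM in uninjured lineage cells, which is 0.115% and 0.432% of the Cox4i1 and Cox4i2 counts. Cox6b2, known from testis, was highest at 9.48 CPM in uninjured lineage cells and 9.32 CPM in day 3 neutrophils.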

How the data were processed

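The deposited files hold whole-number counts (unique molecular identifiers per gene and cell), which the authors made with Cell Ranger on mm10 per the submitters' processing notes, which also name Seurat 4.0.1; per the file headers the matrices were written by software version 3.1.0. Cells with at least 500 genes, 1000 counts and at most 10% mitochondrial counts were kept, and the cells with the highest Scrublet scores, at 0.8% per 1000 cells (157 uninjured and 1673 day 3 cells), were removed, since the automatic threshold marked 0 in both libraries. Libraries were clustered together (scanpy 1.11.5, 2000 variable genes, 30 components, Leiden resolution 1) without the respiratory chain genes and mitochondrial transcripts. Clusters were named from fixed marker lists, needed at least 3 detected markers, and stayed unnamed where leading genes or another compartment's markers went against the name. Mesenchymal-like clusters with more EGFP than tdTomato, macrophage-like clusters with at least 1000 CPM of C1qa, C1qb and C1qc, and osteoclast-like and neutrophil-like clusters formed the 4 classes; the clusters of lineage cells and macrophages differed between the libraries.

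Counts were summed per class and library and divided by all counts of the class. Ratios carry exact conditional binomial 95% intervals. The recovery of set folds was tested on simulated counts that held counting error alone. Such a test cannot speak to differences between animals or libraries. Genes named were, per comparison and complex, the 2 highest and 2 lowest ratios, all mitochondrial genes, tissue isoforms and, per list of other mitochondrial genes, the 2 highest and lowest, and genes called in several comparisons. Members and lists were chosen with earlier results of these data known. The 14 alternatives planned and 4 added after seeing the data included TMM scaling (edgeR 4.0.16). Genes named beside these, such as Atp5g2, Ndufa11 and Ppargc1a, were chosen after their values were seen. Transcript lengths were taken from GENCODE vM21 and promoters from RefSeq on GRCm38.p6.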

Additional observations from a re-analysis of the deposited data

How the results depend on the processing

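Of 363 counts of higher or lower members recomputed under 18 alternatives, 290 stayed within 1.5 times the reported count and 73 did not; no direction is tested, as there is 1 library per condition. No paired analysis was possible because each condition has 1 library. Leaving out a replicate was not possible for the same reason. Of 3993 values of single members, 2506 stayed within their counting interval, 1473 moved beyond it and 14 reversed.

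Under TMM scaling, nuclear members higher and lower at day 3 over uninjured were 1 and 47 in osteoclasts and 1 and 68 in macrophages. In lineage cells over macrophages they were 27 and 1 at day 3 and 1 and 7 uninjured, with 1 mitochondrial gene called, and in neutrophils over macrophages 24 and 9, with 2 mitochondrial genes called. The uninjured counts stood beside 23.6% and 29.1% of all features, and the other shares under TMM scaling are given above. Division by the median of all features gave, at day 3 over uninjured, 1 and 55 in osteoclasts, 1 and 36 in lineage cells and 1 and 71 in macrophages. It gave 34 and 1 in day 3 lineage cells over macrophages, 1 mitochondrial gene called in the uninjured ones, and 28 and 6 with 3 mitochondrial genes called in neutrophils. By this division, at day 3 over uninjured, 17.6% of all features were higher and 21.6% lower in osteoclasts. In lineage cells 25.4% and 22.6% were, and in macrophages 21.4% and 26.5%. For day 3 lineage cells over macrophages the shares were 30.7% and 30.8%, and for neutrophils 29.55% and 29.8%. With the neutrophil markers out of the totals the neutrophil counts were 18 and 11, with 4 mitochondrial genes called. The cause of these shifts is the scaling itself.

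A 2-fold threshold left fewer calls by construction. At day 3 over uninjured it left 1 higher and 3 lower in osteoclasts, 0 and 2 in lineage cells and 2 and 16 in macrophages. In uninjured osteoclasts over macrophages 30 stayed higher with 5 mitochondrial genes, and at day 3 4 mitochondrial genes. In lineage cells over macrophages 1 stayed higher, 0 lower and 0 mitochondrial at day 3, and 0 higher and 1 lower uninjured. In neutrophils 0 stayed higher, 21 lower and 6 mitochondrial. At this threshold, at day 3 over uninjured, 19.7% of all features were higher and 2.76% lower in osteoclasts. In lineage cells 17.1% and 6.19% were, and in macrophages 32.9% and 3.84%. For osteoclasts over macrophages the shares were 9.02% and 16.5% uninjured and 7.32% and 19.65% at day 3. For lineage cells over macrophages they were 15.3% and 27.75% at day 3 and 17.75% and 17.4% uninjured, and for neutrophils 7.025% and 50.6%. A minimum of 50 CPM left 1 higher in lineage cells at day 3 over uninjured, beside 28.4% of all features. With no minimum, osteoclasts over macrophages had 1 lower at day 3 and 3 uninjured, beside 42.5% and 41.1% of all features. Uninjured lineage cells over macrophages then had 7 higher, beside 45.3%.

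Of the choices on cells, libraries clustered apart gave 9 higher and 4 lower in osteoclasts at day 3 over uninjured, and 37 higher with 5 mitochondrial genes in uninjured osteoclasts over macrophages. No mitochondrial filter gave 6 and 8 in osteoclasts at day 3 over uninjured, beside 39.1% and 9.33% of all features. No doublet removal gave 1 higher there, beside 44.7% of all features, and 20 lower in neutrophils, beside 54.4%. Without cycling cells 5 were higher in osteoclasts at day 3 over uninjured, beside 41.7%, and 1 lower in uninjured osteoclasts over macrophages, beside 30.2%. In day 3 lineage cells over macrophages 31 were then higher, beside 24.8%, and 1 mitochondrial gene was called in uninjured ones. Equal weight per cell gave 29 higher and 2 lower in lineage cells over macrophages at day 3, beside 24.6% and 41.2% of all features. Uninjured it gave 7 higher, beside 27.5%, with 1 mitochondrial gene. Leiden resolution 0.5 gave 9 higher, beside 22.15%, with 2 mitochondrial genes at day 3, and 0 higher and 7 lower uninjured, beside 26.0% and 25.2%. The lineage cluster found in both libraries alone gave 43 higher and 2 lower at day 3, beside 14.6% and 67.9%. It gave 13 higher, beside 16.3%, with 6 mitochondrial genes uninjured, and 6 lower at day 3 over uninjured, beside 18.2%. The cause of these changes was not tested. At Leiden resolution 2 fewer than 50 uninjured osteoclasts were left (37), so no value is given.

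The log2 ratios that reversed were, in neutrophils over macrophages, mt-Atp6 at 0.14 and mt-Nd5 at 0.10 under TMM scaling, mt-Atp6 at 0.02 without the neutrophil markers, and, divided by the median of all features, Cox5a at 0.22, Uqcrq at 0.05, mt-Atp6 at 0.37, mt-Co1 at 0.03, mt-Co2 at 0.14, mt-Nd4l at 0.03, mt-Nd5 at 0.32 and mt-Nd6 at 0.03. In day 3 lineage cells over macrophages, Atp5e at 0.01 and Ndufv3 at 0.03 reversed in the cluster found in both libraries. Atp5g3 at day 3 over uninjured in macrophages was at -0.06 when divided by the median. Depth limits the 77 uninjured osteoclasts and the neutrophils most.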
